A study of Mus musculus with 12 samples.

Results

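Neutrophils from the bone marrow of mice were cultured with glycocholic acid (GCA) or with phosphate-buffered saline (PBS) as the vehicle, and their RNA was sequenced. All genes of the 3 GCA samples, numbered 3, 4 and 5 in the labels, were compared with those of the 3 PBS samples, numbered 3, 5 and 6. These are 6 of the 12 samples of the series. The other samples received taurocholic acid (TCA) or tauro-β-muricholic acid (Tβ-MCA), with 3 samples each and the numbers 3, 4 and 5. GCA and TCA were given at 200 μM and every culture lasted 24 h. For Tβ-MCA the sample labels state 10 μM and the study's methods 200 μM. All samples were labelled wild type, and the mice named in the study's methods were female C57BL/6 animals of 4 to 6 weeks. The labels call the cells Ly6G+, selected with magnetic beads, and the methods describe a separating medium followed by an enrichment kit. The labels do not say whether the samples of a group came from separate mice or cultures, and the study speaks of independent experiments only for a set of panels as a whole, so the p-values measure the spread between these samples, which may be technical. Of 29737 genes listed, 16761 passed the filter on low counts and were tested, and 17138 were tested when GCA replicate 4 was left out.

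GCA and TCA are both conjugates of cholic acid, a primary bile acid that hepatocytes make from cholesterol. GCA carries glycine and TCA carries taurine. Conjugated bile acids are strong detergents that need transporters to cross membranes, and they act as signals through nuclear receptors such as FXR (Nr1h4) and through receptors of the cell surface such as TGR5 (Gpbar1) and S1PR2. Neutrophils are short-lived phagocytes that release chemokines when they are activated, and the mRNAs of many of their early-response genes are made and degraded within a short time of a stimulus. The kinase p38, which the study examined in bile acid-treated neutrophils, is switched on by the kinases MKK3 and MKK6 and switched off by phosphatases such as DUSP1.

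Total counts were 34205621 to 38943864 in the GCA and PBS samples. Levels are given as counts per 1000000 counts (CPM) scaled by edgeR's TMM factors, and 3 counts, the lowest number taken as detected, corresponded to 0.0770 to 0.0877 CPM. This limit covers counting error only, and a count of 2 was 2.97 to 3.62 times as frequent as a count of 1 in these samples, so that 3 counts can stand for fewer than 3 fragments. The summed level of 14 neutrophil markers, among them S100a8, S100a9, Csf3r and Ly6g, was 51578 to 63631 CPM with PBS and 47043 to 58379 CPM with GCA. The summed level of 16 monocyte and macrophage markers was 2968 to 3464 CPM with PBS, and none of these genes was at 0. The markers of B cells reached at most 66.7 CPM and those of T and NK cells at most 15.8 CPM in these samples. In bulk RNA, fewer cells of a type and less RNA per cell cannot be told apart. In PBS replicate 6, transcripts that carry ribosomal RNA sequence were high, with Rn18s-rs5 at 2092 CPM against 234 to 560 CPM in the other 5 GCA and PBS samples.

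GCA replicate 4 stood apart from the other samples that received GCA or PBS. Over all genes tested, each gene's log2 CPM was centred on its mean over the 12 samples, and the samples were then correlated. GCA replicate 4 correlated at 0.08, 0.20 and 0.06 with Tβ-MCA replicates 3, 4 and 5, and at -0.29 to -0.11 with the PBS samples. GCA replicate 3 correlated at -0.35 to -0.12 with the Tβ-MCA samples, and GCA replicate 5 at -0.38 to -0.01. These are descriptions across genes, which are not independent replicates. The 3 GCA samples did not resemble each other more than they resembled other groups, since the correlations among them were -0.24, -0.10 and -0.08. GCA replicate 3 correlated at 0.25 with both PBS replicate 3 and TCA replicate 3, and these 3 samples lay apart from those numbered 4, 5 and 6. The labels do not say what a number stands for.

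**Figure D1:**
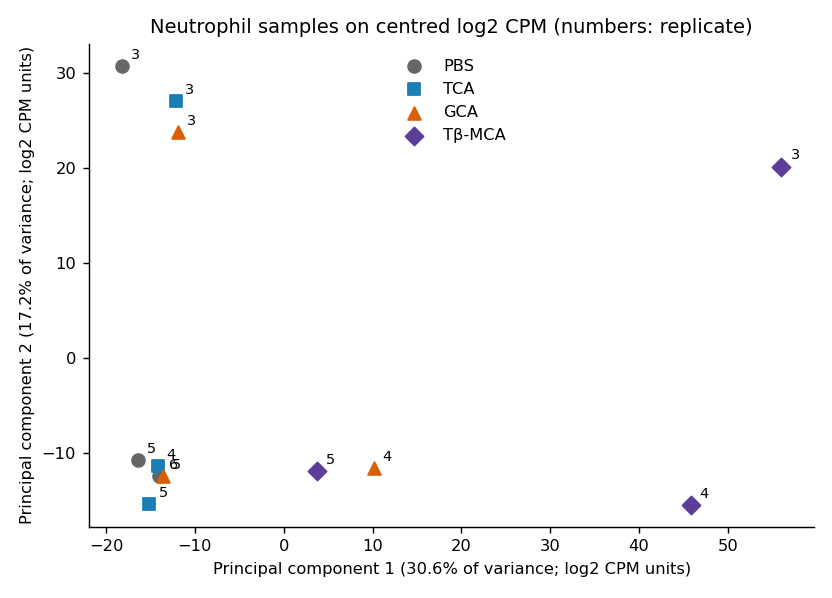
Principal components of the 12 samples on centred log2 CPM of 16761 genes, with component 1 (30.6% of the variance) on the x axis, component 2 (17.2%) on the y axis, and 1 point per sample marked with its replicate number. GCA replicate 4 lies at 10.1 on component 1, between GCA replicates 3 and 5 (-11.9 and -13.6) and Tβ-MCA replicates 3 and 4 (56.1 and 45.8), next to Tβ-MCA replicate 5 (3.75), and the samples numbered 3 lie high on component 2.

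The genes that set GCA replicate 4 apart were taken from those with a mean of at least 5 CPM over the 12 samples, as the genes in which it lay more than 0.5 on the log2 scale outside the range of the other 5 GCA and PBS samples. There were 41 such genes of 9785, of which 26 were higher and 15 lower. The same count was 6 for GCA replicate 3, 1 for GCA replicate 5, 28 for PBS replicate 3, 3 for PBS replicate 5 and 7 for PBS replicate 6. The order depended on the limit, since PBS replicate 3 lay outside by any distance in 4466 genes and GCA replicate 4 in 4073, and more than 1 outside in 1 and 2 genes, against 5 for PBS replicate 6. In all 41 genes of GCA replicate 4, Tβ-MCA replicates 3 and 4 also lay outside that range, on the same side, and GCA replicate 4 lay between their mean and that of GCA replicates 3 and 5. For the 28 genes of PBS replicate 3 the number on the same side as Tβ-MCA was 3.

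Slc12a3, which encodes a sodium-chloride cotransporter best known from the kidney, lay farthest out, at 11.9 CPM in GCA replicate 4. It was at 1.75 and 4.02 CPM in GCA replicates 3 and 5 and at 1.72 to 3.72 CPM in the PBS samples. Its levels with Tβ-MCA were 15.3, 20.8 and 8.81 CPM. Tchh, the gene of the hair follicle protein trichohyalin, was at 87.8 CPM in GCA replicate 4, against 30.03 and 35.4 CPM in the other GCA samples and up to 34.8 CPM with PBS. Hpgds, the hematopoietic prostaglandin D synthase, was at 43.5 CPM against 14.8 and 21.0 CPM, and Anpep, the aminopeptidase CD13 of myeloid cells, was at 18.1 CPM against 5.27 and 9.96 CPM. C77080, Adi1, Gm11613 and Col9a2 were also among the 10 genes farthest out and were higher, by up to 2.66-fold over the mean of GCA replicates 3 and 5. The lower genes among these 10 were Vcan, the matrix proteoglycan versican, and Rnd3. Vcan was at 40.9 CPM in GCA replicate 4, 96.7 and 69.6 CPM in GCA replicates 3 and 5, and 1.26, 1.08 and 50.1 CPM in Tβ-MCA replicates 3, 4 and 5. Rnd3 was at 9.51 CPM against 15.9 and 17.5 CPM.

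**Figure D2:**
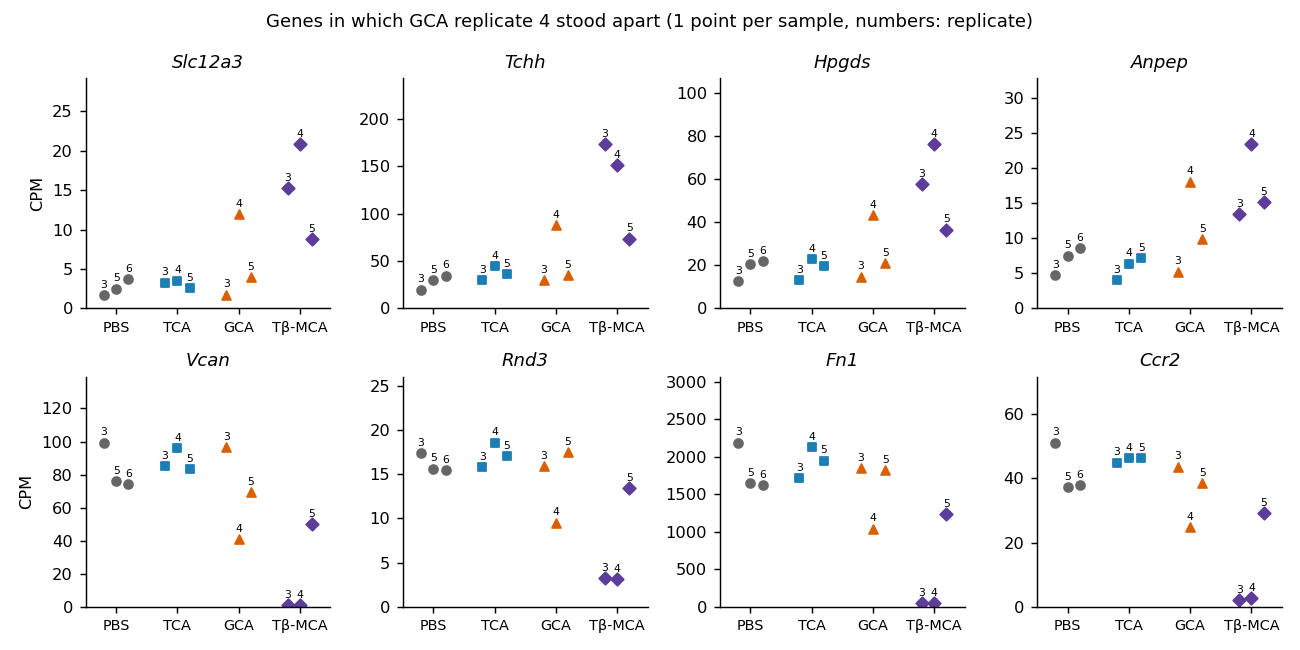
Levels in CPM (y axis, from 0) of 8 genes in the PBS, TCA, GCA and Tβ-MCA samples (x axis), with 1 point per sample marked with its replicate number; Fn1 and Ccr2 were added after their values were seen. In each panel GCA replicate 4 lies between the mean of the other GCA samples and the mean of Tβ-MCA replicates 3 and 4, as for Slc12a3 at 11.9 CPM and Vcan at 40.9 CPM.

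Of the 15 lower genes, Fn1, F13a1 and Ccr2 are in the list of monocyte and macrophage markers, Ear2 is in that of eosinophils and Mpo in that of neutrophils. Fn1, the matrix protein fibronectin, was at 1042 CPM in GCA replicate 4, 1854 and 1824 CPM in GCA replicates 3 and 5, and 50.3 and 54.4 CPM in Tβ-MCA replicates 3 and 4. F13a1, a subunit of coagulation factor XIII, was at 315 CPM against 574 and 488 CPM, and Ccr2, the receptor for CCL2, was at 24.9 CPM against 43.7 and 38.5 CPM; these genes, Ear2 and Mpo were chosen after their values were seen. Over the whole list of 16 monocyte and macrophage markers, the summed level in GCA replicate 4 was 2029 CPM, which was 65.1% of the mean of GCA replicates 3 and 5, and 8 of the 16 genes lay below all other GCA and PBS samples. The sum of the neutrophil markers was 86.7% of that mean, with 12 of 14 genes below. The sum was 59.1% for 9 eosinophil markers with 4 genes below, 66.5% for 8 basophil and mast cell markers with 6 below, and 75.4% for 10 B cell markers with 5 below. It was 83.8% for dendritic cell, 97.8% for plasma cell and 97.6% for megakaryocyte markers. For T and NK cell, stroma and erythroid markers it was 104%, 105% and 125%. GCA replicate 4 lay outside the other GCA and PBS samples, on either side, in 4073 of the 9785 genes of at least 5 CPM. The marker counts hold only genes below, at any level tested, and the share of all genes below was not counted. The marker counts therefore cannot be set against that share. The eosinophil sum was 139 CPM in GCA replicate 4, 292 and 177 CPM in GCA replicates 3 and 5, and 169 to 299 CPM with PBS. The basophil and mast cell sum was 49.98 CPM in GCA replicate 4 and 92.9 and 57.5 CPM in GCA replicates 3 and 5. With PBS it was 91.2 CPM in replicate 3 and 54.4 to 59.7 CPM in the others. The B cell sum was 43.7 CPM in GCA replicate 4, against 60.8 and 54.98 CPM, and 52.3 to 66.7 CPM with PBS. In these sums GCA replicate 4 was lowest of the GCA and PBS samples. GCA replicate 3 raised the mean behind the percentages, and like PBS replicate 3 it lay above the GCA and PBS samples of other numbers. Mpo, a neutrophil precursor gene of the azurophil granule, was at 131 CPM against 190.4 and 205 CPM. The part of these markers in the position of GCA replicate 4 was not tested, nor was whether its label holds.

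Where GCA replicate 4 lay between the groups was read on a linear CPM scale, with 0 at the mean of GCA replicates 3 and 5 and 1 at the mean of Tβ-MCA replicates 3 and 4. The genes were chosen from TCA and Tβ-MCA values alone, as 40 genes that differed at least 4-fold between Tβ-MCA replicates 3 and 4 and TCA. The median position of GCA replicate 4 over these genes was 0.41, with quartiles of 0.36 and 0.49, and all 40 genes were above 0. It was 0.49 over the 7 genes higher with Tβ-MCA and 0.40 over the 33 lower ones. The PBS samples had medians between -0.02 and 0.03 and the TCA samples between -0.13 and 0.06. Tβ-MCA replicate 5 had a median of 0.30, with quartiles of 0.25 and 0.36. Genes higher and genes lower with Tβ-MCA were thus both displaced in GCA replicate 4, and the main counts and genes that follow are given with and without this sample.

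**Figure D3:**
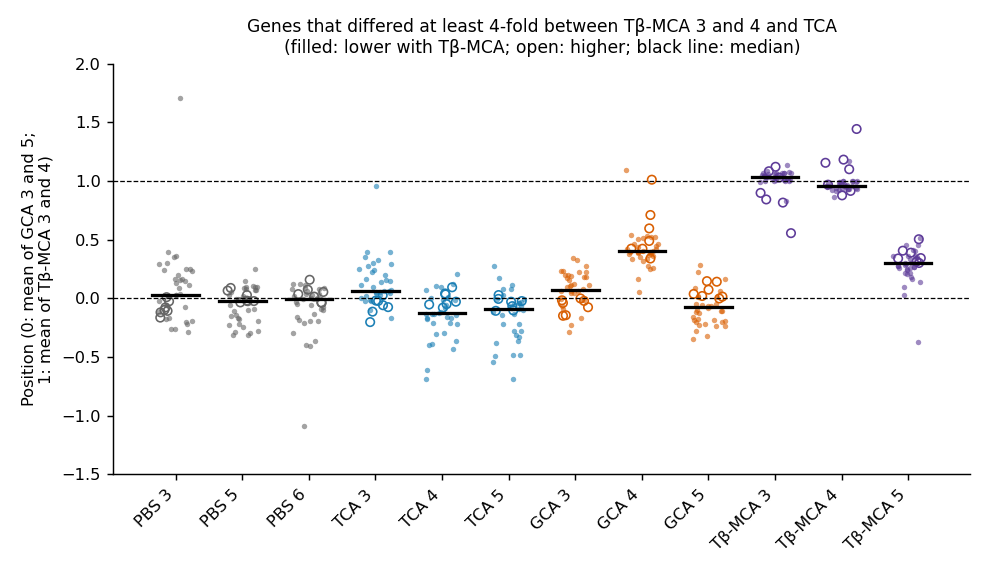
Position of each sample (x axis) on a linear scale (y axis) from the mean of GCA replicates 3 and 5 (0) to the mean of Tβ-MCA replicates 3 and 4 (1), for 40 genes that differed at least 4-fold between Tβ-MCA replicates 3 and 4 and TCA; points are genes and black lines are medians, and 2 values of Fosb, in TCA replicates 4 and 5, lie below the axis. The median is 0.41 in GCA replicate 4 and 0.30 in Tβ-MCA replicate 5, and within 0.13 of 0 in all PBS and TCA samples; GCA replicates 3 and 5 mirror each other around 0 by construction.

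The comparison of GCA with PBS asks which genes of the neutrophils responded to the bile acid. By the quasi-likelihood test of edgeR, adjusted over all genes tested by the Benjamini-Hochberg method, no gene had an adjusted p under 0.05, and the lowest was 0.999. DESeq2 also found 0, and the unadjusted p was under 0.05 for 591 genes by edgeR, which were 3.53% of those tested, and for 548 genes by DESeq2. In fits with other terms it was under 0.05 for 917 genes (5.47%) with replicate number blocked, 1005 with a term for number 3, 1561 (9.47%) with that term and the Tβ-MCA samples left out, and 1136 (6.74%) with GCA replicate 4 left out as well. The fits with that term were chosen after the data were seen. The lowest adjusted p was 0.11 by DESeq2, 0.14 by edgeR with replicate number blocked and 0.21 with only the groups compared. It was 0.011 with the term for number 3 and the Tβ-MCA samples left out. It was 0.998 with the Tβ-MCA samples left out and no such term, and 0.61 with the term over all 12 samples. The lowest adjusted p thus differed between fits, and what set it was not tested. Of the 591 genes, 293 (1.75%) were higher and 298 (1.78%) lower with GCA. At the study's thresholds, read as an unadjusted p under 0.05 and a change of at least 2-fold, 89 genes differed, or 0.531% of those tested, and with an adjusted p in its place 0 did. With GCA 36 of them (0.215%) were higher and 53 (0.316%) lower. This count was 137 without PBS replicate 6 and 135 without GCA replicate 3. In 790 genes (4.71%) every GCA sample lay above every PBS sample, and in 810 (4.83%) below. Without GCA replicate 4 there were again 0 genes with an adjusted p under 0.05, 374 genes (2.18%) with an unadjusted p under 0.05, 159 (0.928%) higher and 215 (1.25%) lower, and 97 genes (0.566%) at the thresholds, with 37 (0.216%) higher and 60 (0.350%) lower. The groups then did not overlap in 1324 genes (7.90% of 16761) with GCA higher and 1372 (8.19%) with GCA lower. Smaller groups separate more often even where nothing differs, so these shares cannot be set against those of all 6 samples. The 43 genes at the thresholds in both fits were 48.3% of the 89 and 44.3% of the 97.

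The 89 genes were expressed at low levels, with a median of 0.299 CPM over the GCA and PBS samples against 8.86 CPM for all genes tested, and 88 of them had a mean under 1 CPM over the 12 samples. The other gene, Rassf6, named after its values were seen, encodes a Ras-association domain protein and was at 1.27, 4.33 and 1.71 CPM in GCA replicates 3, 4 and 5 and at 0.545 to 1.30 CPM with PBS. GCA replicate 4 alone was high, and the Tβ-MCA samples were at 3.24 to 8.18 CPM. The precision of the abundant genes was high. The 95% confidence interval of the log2 fold change lay within 2-fold in either direction for 80.0% of all genes tested, for 98.7% of the 5956 genes between 10 and 100 CPM and for 99.5% of the 2119 genes above 100 CPM. For genes under 1 CPM this was 20.2%, and their intervals had a median half-width of 0.99 on the log2 scale.

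**Figure D4:**
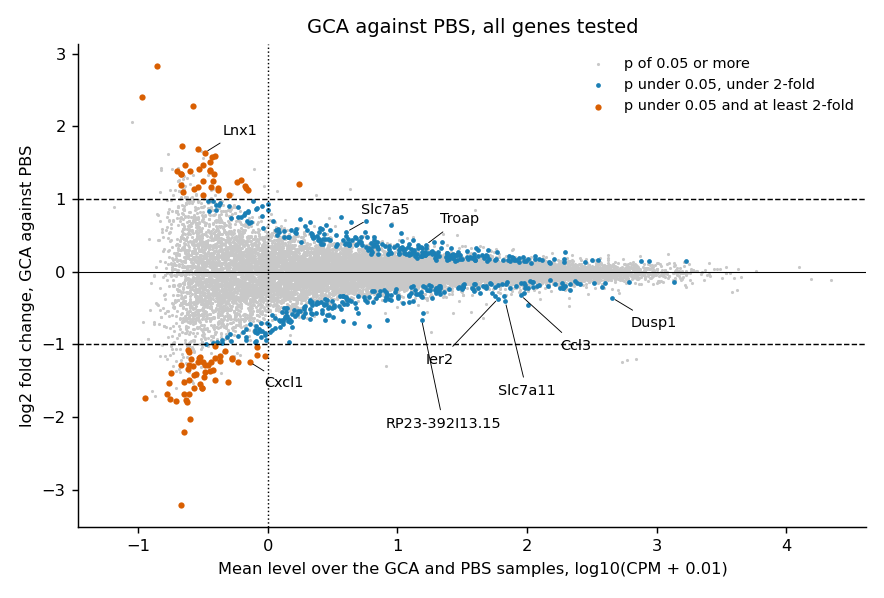
Log2 fold change of GCA against PBS (y axis) by the mean level over the 6 GCA and PBS samples (x axis, log10 of CPM + 0.01) for the 16761 genes tested, colored by the unadjusted p of edgeR's quasi-likelihood test, with dashed lines at 2-fold and a dotted line at 1 CPM. The 89 genes at p under 0.05 and 2-fold (orange) lie almost entirely left of the dotted line, and the genes named in the plot that lie right of it differed by less than 2-fold.

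No gene met the rule for genes to be described first, which asked for the thresholds, values that do not overlap between the groups and at least 1 CPM. Without GCA replicate 4 the rule gave Gm10029, a predicted gene, which was at 0.901 and 0.934 CPM in GCA replicates 3 and 5 and at 1.55 to 2.59 CPM with PBS. Of the genes in the 24 lists, Cxcl1 was at the thresholds in both fits and Dusp10 only without GCA replicate 4. Dusp10 was at 0.282, 0.659 and 0.104 CPM in GCA replicates 3, 4 and 5 and at 0.471 to 0.545 CPM with PBS. Without GCA replicate 4 it was lower with GCA, with a log2 fold change of -1.43 that rests on 10 and 4 counts in GCA replicates 3 and 5. Ppbp, a platelet chemokine among the markers of megakaryocytes, was at the thresholds with all samples, at 0.0573 to 0.169 CPM with GCA and 0.172 to 0.593 CPM with PBS, which are 2 to 22 counts per sample. Its unadjusted p was 0.049, and 0.15 without GCA replicate 4, and it stayed under 0.05 in 1 of the 6 fits that left out 1 sample.

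The chemokine and cytokine list had 26 genes tested. Its median log2 fold change was -0.17, the lowest of the 24 lists, against 0.00 over all genes, and 5 of the 26, namely Cxcl1, Ccl3, Ccl4, Il23a and Il27, lay below all PBS samples in every GCA sample, where 4.83% of all genes did. Cxcl1 encodes a ligand of the neutrophil receptor CXCR2. It was at 0.338, 0.516 and 0.415 CPM in GCA replicates 3, 4 and 5, and at 1.03, 1.18 and 0.809 CPM in PBS replicates 3, 5 and 6. These levels rest on 12, 18 and 16 counts with GCA and 36, 40 and 30 with PBS. The groups did not overlap, and the log2 fold change was -1.24 (SE 0.41, 95% interval -2.12 to -0.37, unadjusted p = 0.0082). It was -1.41 without GCA replicate 4, and within the samples numbered 3 and 5 it was -1.47 and -1.39.

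Ccl3, the macrophage inflammatory protein MIP-1α, was at 77.0, 72.6 and 88.8 CPM with GCA and at 92.1, 113 and 93.6 CPM with PBS. All GCA samples lay below all PBS samples, with a log2 fold change of -0.32 (SE 0.10, unadjusted p = 0.0058), and -0.26 (unadjusted p = 0.032) without GCA replicate 4. Ccl4, its close relative, was at 2.20 to 3.03 CPM against 3.05 to 4.68 CPM, with a log2 fold change of -0.50 whose unadjusted p was 0.047 with all samples and 0.091 without GCA replicate 4. Cxcl2, another CXCR2 ligand, was at 29.9, 33.1 and 45.2 CPM with GCA and 40.9, 68.6 and 57.9 CPM with PBS. These groups overlapped, and the unadjusted p was 0.18. When the Tβ-MCA samples and GCA replicate 4 were left out and the samples numbered 3 were given a term of their own, a fit added after the data were seen, Cxcl2 had a log2 fold change of -0.47 with an adjusted p of 0.0081. The other gene with an adjusted p under 0.05 in that fit was RP23-392I13.15 (-0.72, adjusted p = 0.0062), which was also the 1 such gene when GCA replicate 4 was kept, and both are named after their values were seen. Il1b and Tnf, which encode inflammatory cytokines, had unadjusted p-values of 0.27 and 0.25.

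Of 8 promoters scanned, 3 are shown because Dusp1 and Fos are known targets of the cyclic AMP factor CREB and Cxcl2 of NF-κB, pathways that lie downstream of surface receptors. The sequences are the 250 bases before the RefSeq gene start, 5′ to 3′ on the gene's strand in build GRCm38.p6. They lie at chr17:26508473-26508722 on the minus strand for Dusp1, at chr12:85473640-85473889 on the plus strand for Fos and at chr5:90903649-90903898 on the plus strand for Cxcl2. Capitals mark, on either strand, the half-site TGACG of the cyclic AMP response element in Dusp1 and Fos and the κB form, which is GGG, 5 bases of any kind and CC, in Cxcl2.
Dusp1: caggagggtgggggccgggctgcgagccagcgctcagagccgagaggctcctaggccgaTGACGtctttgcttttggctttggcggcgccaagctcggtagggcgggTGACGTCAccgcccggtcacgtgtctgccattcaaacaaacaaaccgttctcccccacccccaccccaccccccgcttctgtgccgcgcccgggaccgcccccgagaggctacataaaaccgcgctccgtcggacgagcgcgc
Fos: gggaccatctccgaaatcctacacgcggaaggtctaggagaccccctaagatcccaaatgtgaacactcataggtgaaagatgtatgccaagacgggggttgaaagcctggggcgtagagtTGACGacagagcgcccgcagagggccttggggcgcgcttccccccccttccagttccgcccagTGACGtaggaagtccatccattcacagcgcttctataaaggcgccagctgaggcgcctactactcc
Cxcl2: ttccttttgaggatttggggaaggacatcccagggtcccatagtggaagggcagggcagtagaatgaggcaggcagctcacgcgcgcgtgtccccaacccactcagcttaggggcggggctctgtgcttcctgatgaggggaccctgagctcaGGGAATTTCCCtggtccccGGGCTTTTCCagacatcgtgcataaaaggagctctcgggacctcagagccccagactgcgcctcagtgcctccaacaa
Dusp1 held the full palindrome TGACGTCA, which contains the half-site on both strands, at 143 to 136 bases before the start, and Fos held half-sites at 129 to 125 and 66 to 62 bases. Cxcl2 held 2 overlapping κB forms at 97 to 87 bases and another at 78 to 69 bases. Dusp1 also held 2 overlapping κB forms and Fos 1, which are not in capitals. Of the other 5 promoters, those of Junb and Cxcl1 held the half-site, those of Cxcl1 and Nfkbia the κB form, and those of Ccl3 and Myd88 neither. For Junb the bases after the start used were not found in a transcript of the gene, so the place of its promoter is uncertain. Of 32851 promoters of this length, 1.55% held the palindrome, 17.8% the half-site and 45.8% the κB form. The matches describe these letters and do not show that a factor bound.

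Among 23 immediate-early genes, which are induced without new protein synthesis, the median log2 fold change against PBS was -0.06, and Ier2 had an unadjusted p under 0.05. Ier2 was at 46.6, 51.0 and 59.3 CPM with GCA and 67.6, 74.1 and 61.0 CPM with PBS. All GCA samples were lower, with a log2 fold change of -0.37 (SE 0.11, unadjusted p = 0.0034), and -0.35 (unadjusted p = 0.013) without GCA replicate 4. With the Tβ-MCA samples also left out and a term for number 3, the unadjusted p of Ier2 was 0.069. Fos, a subunit of AP-1, was at 149.7, 180.4 and 199 CPM with GCA against 174, 315 and 242 CPM with PBS, and these groups overlapped (unadjusted p = 0.080). Junb, another AP-1 subunit, also overlapped, at 91.1 to 134 CPM against 124 to 167 CPM (unadjusted p = 0.16). Egr1 overlapped as well, at 39.0 to 43.3 CPM against 33.9 to 80.5 CPM (unadjusted p = 0.19).

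The p38 list had 36 genes tested, with a median log2 fold change of 0.01. Mapk14, which encodes p38α, was at 119 to 124 CPM with GCA and 117 to 135 CPM with PBS, with a log2 fold change of -0.05 and a 95% interval from -0.19 to 0.09. On the authors' RPKM scale, which divides counts by gene length and depth, Mapk14 was at 26.9 to 28.9 and Mapk13, the gene of p38δ, at 40.9 to 47.9 with GCA, while Mapk11 and Mapk12 were at 0.163 RPKM or less. Map2k6, the gene of MKK6, was at 0.676, 3.44 and 0.674 CPM in GCA replicates 3, 4 and 5 and at 0.530 to 0.917 CPM with PBS. The value of GCA replicate 4 alone was high, and the log2 fold change was 1.11 with it and -0.12 without it. In Tβ-MCA replicates 3, 4 and 5 this gene was at 7.99, 6.4 and 2.92 CPM.

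Of the 36 p38 genes, 2 were higher and 3 lower at an unadjusted p under 0.05. Of all genes tested, 1.75% were higher and 1.78% lower at this p. Dusp1, the phosphatase named above, was at 400.3, 360.1 and 432 CPM with GCA and 499, 566 and 463 CPM with PBS, with no overlap. Its log2 fold change was -0.36 (SE 0.14, unadjusted p = 0.022), and -0.29 (unadjusted p = 0.082) without GCA replicate 4. Its p was also above 0.05 without PBS replicate 5, with replicate number blocked and with a term for number 3. The log2 fold changes were -0.57 for Dusp16, which acts on JNK and p38, and -0.20 for Max, the partner of MYC. They were 0.21 and 0.24 for Map3k6 and Zak, both kinases upstream of p38 and JNK. Without GCA replicate 4 the unadjusted p was 0.14 for Max and 0.12 for Zak, and it stayed under 0.05 for Dusp16 and Map3k6. In the 6 fits that left out 1 sample each, it stayed under 0.05 in 5 for Dusp16, 4 for Zak and 2 for Max and for Map3k6. The p of Map3k6 was above 0.05 with the block, and that of Max with the term for number 3.

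**Figure D5:**
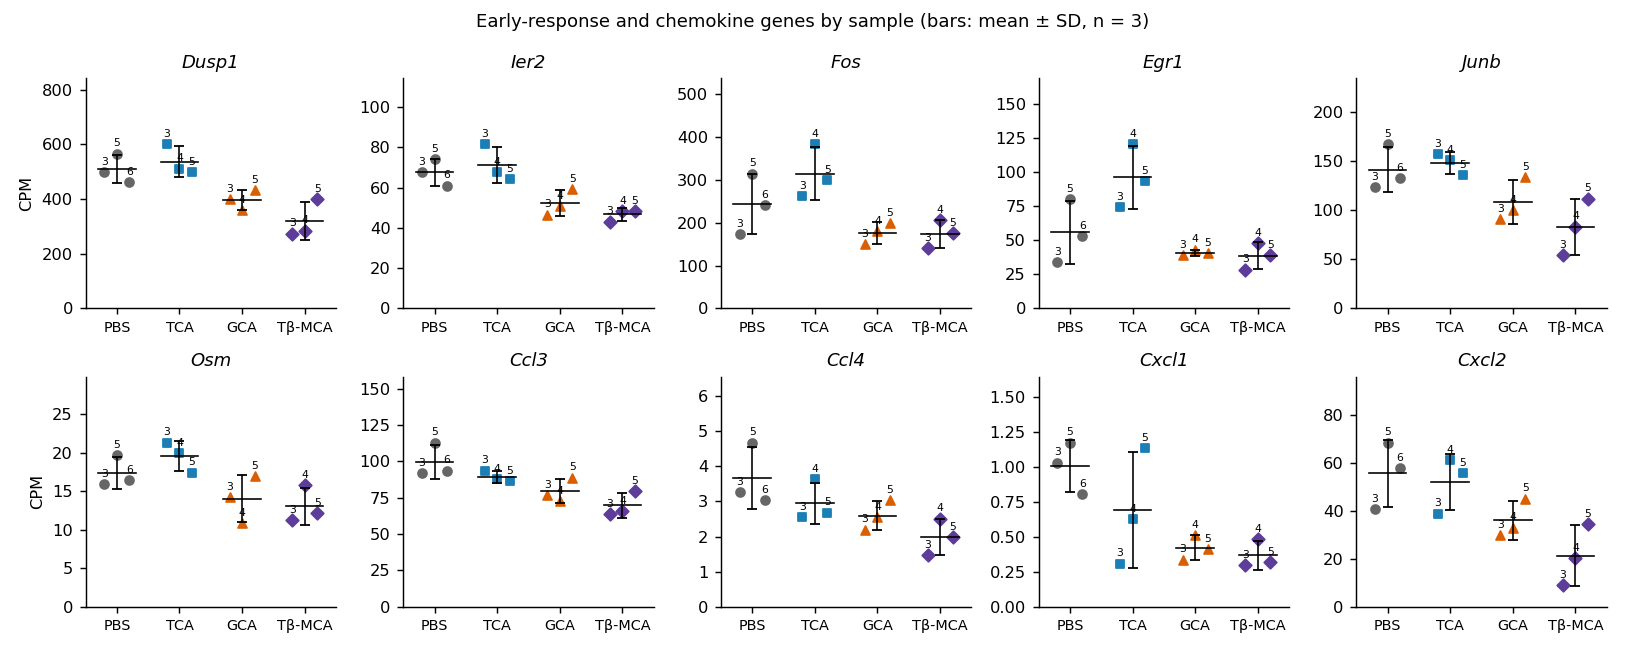
Levels in CPM (y axes, from 0) of 10 early-response and chemokine genes in the PBS, TCA, GCA and Tβ-MCA samples (x axes), with 1 point per sample marked with its replicate number, and bars for the mean ± SD (n = 3). Dusp1, Ier2, Ccl3, Ccl4 and Cxcl1 show no overlap between GCA and PBS, and Fos, Egr1, Ier2, Dusp1, Junb and Osm none between GCA and TCA.

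The bile acid receptor genes Nr1h4 and Gpbar1 were at or near the limit of detection, and S1pr2 was expressed. Nr1h4 had 2 counts in GCA replicate 5 and 0 in the other 11 samples. Gpbar1 had 2, 2 and 4 counts in the PBS samples and 0 in each GCA sample, levels at which no change can be given. S1pr2 was at 6.39, 6.73 and 7.21 CPM with GCA and 5.39, 6.83 and 5.88 CPM with PBS, with a log2 fold change of 0.17 and a 95% interval from -0.15 to 0.48. Of 20 receptor and transporter genes tested, Rxra, the partner of FXR and LXR, was higher by 0.22 (unadjusted p = 0.040), and this was lost without GCA replicate 4 (unadjusted p = 0.22). Chrm3, a muscarinic receptor listed because bile acids bind it, was at 9.32, 8.08 and 9.28 CPM with GCA and 10.7, 11.7 and 11.2 CPM with PBS, with a log2 fold change of -0.33 (unadjusted p = 0.0057), and -0.27 without GCA replicate 4. Slco4a1, an organic anion transporter, had a log2 fold change of -0.41 (unadjusted p = 0.031), and -0.44 (unadjusted p = 0.047) without GCA replicate 4.

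Nos2 and Cxcl10, which are readouts of the study, and Cd274 overlapped between GCA and PBS, while Arg1 did not pass the filter on low counts. Arg1, which encodes arginase 1, had 3, 4 and 1 counts in GCA replicates 3, 4 and 5 and 7, 12 and 7 counts in the PBS samples. These counts did not overlap, and the TCA samples had 3 to 18. In the fit without the Tβ-MCA samples and GCA replicate 4 and with a term for number 3, the filter kept Arg1, with GCA lower (unadjusted p = 0.048, adjusted p = 0.74). Nos2, the inducible nitric oxide synthase, was at 2.03, 1.12 and 2.39 CPM with GCA and at 1.54 to 2.55 CPM with PBS (95% interval of the log2 fold change from -0.65 to 0.50). Cd274, the gene of PD-L1, was at 39.8, 72.6 and 58.8 CPM with GCA and 39.0, 60.9 and 58.4 CPM with PBS, with the highest value in GCA replicate 4 (95% interval from -0.43 to 0.66). Cxcl10 was at 0.282 to 0.687 CPM against 0.177 to 0.459 CPM, again highest in GCA replicate 4. Ifng had 1 count in PBS replicate 3 and 0 in the other 11 samples. Of 23 immunosuppressive genes tested, Cd38, an ectoenzyme that consumes NAD, had a log2 fold change of -0.40 with an unadjusted p of 0.029, or 0.079 without GCA replicate 4.

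Over the 24 lists together, 33 of the 616 distinct genes tested had an unadjusted p under 0.05, which is 5.36% beside the 3.53% of all genes. The lists were chosen with earlier results of these data known, so the difference between these shares is not a result and was not tested. With GCA 12 were higher and 21 lower. When each of the 6 samples was left out in turn, 8 of the 33 kept this p every time: Cxcl1, Ccl3, Ier2, Chrm3, Slc7a11, Slc7a5, Fads1 and Ldha. In the list of NRF2 targets the gene was Slc7a11, which encodes the cystine transporter xCT. Slc7a11 was at 57.2, 58.9 and 59.0 CPM with GCA and 93.1, 73.4 and 65.7 CPM with PBS, with a log2 fold change of -0.41 (SE 0.10, unadjusted p = 0.00090) and again -0.41 (unadjusted p = 0.0031) without GCA replicate 4. The GCA samples lay close together, and PBS replicate 3 was highest. Slc7a5, a transporter of large amino acids in the stress list, was at 5.30, 4.35 and 4.69 CPM against 3.39, 3.24 and 3.18 CPM, a log2 fold change of 0.55 (unadjusted p = 0.0088) and 0.61 (unadjusted p = 0.0096) without GCA replicate 4. Ldha, a subunit of lactate dehydrogenase, had a log2 fold change of -0.20 in both fits, and Fads1, a fatty acid desaturase, had 0.41 and 0.35.

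Fpr2 and Fpr3, receptors for formylated peptides whose gene models overlap on one strand so that their reads are uncertain, had log2 fold changes of -0.34 and -0.36, and both lost an unadjusted p under 0.05 without GCA replicate 4. Of 28 cyclic AMP genes tested, 3 were higher at an unadjusted p under 0.05, where 1.75% of all genes tested were. They were Pde3b and Pde7b, which degrade cyclic nucleotides, and Adcy9, which makes cyclic AMP, with log2 fold changes of 0.25 to 0.47. None of the 3 kept an unadjusted p under 0.05 without GCA replicate 4. The lists of specific and gelatinase granules, NADPH oxidase, adhesion, sterol synthesis and lysosome had no gene at this p. The other lists had 1 gene each, namely Nfkbia, Lyz1, Tap1, Hspa8, Fas, Myd88, Id1 and Ube2c, of which Tap1 and Ube2c were higher, and 2 lists had a further member, Pdia4 (lower) in the stress list and Egln1 (higher) in the hypoxia list. Acaca was the second gene of the fatty acid list and was higher by 0.23. For 22 of the 24 lists the median log2 fold change lay within 0.1 of 0.

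Outside the lists, genes with a low p over all 6 samples were chosen after their values were seen and differed by small amounts where they were abundant. RP23-392I13.15, a transcript that overlaps Slfn2 on the opposite strand and cannot be told apart from it if strand was not used, was at 12.1, 12.2 and 11.4 CPM with GCA and 19.9, 17.9 and 18.5 CPM with PBS (log2 fold change -0.66, SE 0.13, unadjusted p = 0.00018). Troap, which encodes a spindle-associated protein, was at 18.5, 18.0 and 19.5 CPM against 12.8 to 15.5 CPM (0.37). The log2 fold change was -0.42 for Plk2, a polo-like kinase, -0.29 for Atp5k, a subunit of ATP synthase, and -0.19 for Rab2a, a small GTPase of the secretory pathway. Lnx1, an E3 ubiquitin ligase gene at 0.415 to 0.535 CPM with GCA and 0.0861 to 0.206 CPM with PBS, had a log2 fold change of 1.64 (unadjusted p = 0.0013), and was at 0.434 to 0.508 CPM with TCA. Each of these genes kept an unadjusted p under 0.05 when any 1 of the 6 samples was left out.

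GCA and TCA share dose, time and the cholic acid part, and the comparison asks whether glycine in place of taurine changed the response. This was the 1 pair of bile acids compared. No gene had an adjusted p under 0.05 by edgeR or by DESeq2. The unadjusted p was under 0.05 for 412 genes (2.46%) by edgeR and 371 by DESeq2, and by edgeR for 706 without GCA replicate 3, 718 with replicate number blocked, 724 with a term for number 3 and 1118 with that term and the Tβ-MCA samples left out. At 2-fold and this p there were 74 genes (0.442%), 31 of them (0.185%) higher and 43 (0.257%) lower with GCA. Of the 412 genes, 214 (1.28%) were higher and 198 (1.18%) lower, and the groups did not overlap in 638 genes (3.81%) with GCA higher and 703 (4.19%) with GCA lower. The 95% interval of the difference lay within 2-fold in either direction for 80.4% of the genes tested and for 98.7% of those between 10 and 100 CPM. Without GCA replicate 4 there were 276 genes at an unadjusted p under 0.05 and 100 at both thresholds. The count of 74 became 122 without TCA replicate 3, 118 without GCA replicate 3 and 112 without GCA replicate 5.

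Of the 23 immediate-early genes, a list chosen with earlier results of these data known, 3 were lower with GCA than with TCA at an unadjusted p under 0.05. They were Fos, Egr1 and Ier2, and 1.18% of all genes tested were lower at this p. Egr1, a zinc finger factor, was one of the 2 genes of at least 1 CPM that met the thresholds without overlap, at 39.0, 43.3 and 40.6 CPM with GCA and 74.7, 121 and 93.5 CPM with TCA. Its log2 fold change was -1.23 (SE 0.32, 95% interval -1.96 to -0.51, unadjusted p = 0.0039), and it was -0.94, -1.48 and -1.20 within the samples numbered 3, 4 and 5. The other gene, Map2k6, was higher with GCA through GCA replicate 4 (1.63, and 0.40 without it). Fos was at 262, 384 and 299 CPM with TCA, above all GCA samples (log2 fold change -0.84, SE 0.24, unadjusted p = 0.0063). Ier2 was at 81.6, 67.8 and 64.4 CPM with TCA (-0.44, 95% interval -0.67 to -0.22, unadjusted p = 0.00077) and Dusp1 at 601, 512 and 499 CPM (-0.43, unadjusted p = 0.0078), again above all GCA samples. Osm, which encodes the cytokine oncostatin M, was at 21.3, 19.9 and 17.4 CPM with TCA and 14.3, 10.9 and 16.9 CPM with GCA (-0.48, unadjusted p = 0.0091). Egr1, Fos, Ier2, Dusp1 and Osm kept an unadjusted p under 0.05 in this comparison when any 1 of the 6 samples was left out. With GCA 5 of the 23 genes, namely Fos, Egr1, Ier2, Junb and Nr4a2, lay below all TCA samples, where 4.19% of all genes did, and Egr3 lay above.

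The comparisons with PBS and with TCA share the GCA samples. Ccl3 and Cxcl1, which were lower than with PBS, were at 86.1 to 93.6 and 0.310 to 1.14 CPM with TCA, and their 95% intervals for GCA against TCA were -0.38 to 0.05 and -1.61 to 0.17. Slc7a11 was at 52.7 to 59.8 CPM with TCA, and its interval was -0.15 to 0.27. Slc7a5 was at 3.90 to 5.77 CPM with TCA, with an interval of -0.32 to 0.44. In Tβ-MCA replicates 3, 4 and 5, at a dose that the sources state differently, Egr1 was at 28.6, 48.3 and 39.2 CPM, Ier2 at 43.1, 48.6 and 48.4 CPM and Dusp1 at 274, 285 and 400 CPM.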

How the data were processed

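RNA of 12 mouse neutrophil samples in 4 groups of 3 was sequenced from a stranded mRNA library. The authors deposited 2 tables, one with whole-number read counts per gene and one with RPKM values. Per the labels and submitters' notes, reads were trimmed with Trimmomatic 0.36, aligned to GRCm38 with STAR 2.5.3a and counted with featureCounts of Subread 1.5.1; the strand setting was not stated in the sources used here. The deposited RPKM values equal the counts divided by gene length and depth.

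Counts were fitted with edgeR 4.0.16 (R 4.3.3), using TMM scaling, the filterByExpr filter, robust quasi-likelihood dispersions over all 12 samples and Benjamini-Hochberg adjustment. Levels are CPM and log2 CPM has a prior count of 2. Intervals are 95%. Calls used the study's thresholds of p 0.05 and 2-fold, with unadjusted p because the study's sequencing methods name a p cutoff without adjustment, although its section on other expression data names one, and separately an adjusted p of 0.05. DESeq2 1.42.0, limma 3.58.1 on log2(RPKM + 1), other scalings and filters, a replicate block and leaving out each sample were alternatives. The main edgeR fit of GCA against PBS was run on simulated counts with known changes. These held no difference by number and no sample set apart from its group, and the other fits were not simulated. Total counts were 32757389 to 41375925. The comparison and the gene lists were chosen with earlier results of these data known. Genes were named by thresholds, no overlap between groups and a mean of at least 1 CPM, by list membership at the thresholds, from a list of readouts and targets, or for GCA replicate 4 by distance from the other samples; others are said to be chosen after their values were seen, and so were the list genes at an unadjusted p under 0.05. No test compared Tβ-MCA with GCA, since its dose is stated differently; its samples entered the shared spread and the description of GCA replicate 4.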

Additional observations from a re-analysis of the deposited data

How the results depend on the processing

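The count of genes at an unadjusted p of 0.05 and 2-fold for GCA against PBS was 88 to 89 with other scalings and 74 with DESeq2, but 308 with no filter, 7 with at least 10 counts in every sample and 9 with limma on log2(RPKM + 1), and 97 to 137 when 1 sample was left out. For GCA against TCA it was 261, 7 and 13 under the same 3 settings, 41 with only the groups compared, and 94 to 122 when 1 sample was left out. Genes with an adjusted p under 0.05 numbered 0 in these settings except with no filter, which gave 36 against PBS and 42 against TCA, and in 2 fits added after the data were seen. In these, the Tβ-MCA samples were left out and number 3 had a batch term, with 1 gene against PBS, and 2 when GCA replicate 4 was also left out. The causes were not tested. The replicate numbers are shared by only 2 pairs of GCA and PBS samples, and correlations of deviations were 0.32 and 0.13, against TCA 0.31, 0.07 and 0.15, so that not every pair passed 0.1 and the numbers were not taken as pairs, although the samples numbered 3 deviated together. With the replicate block 123 and 78 genes were at 2-fold and p 0.05 against PBS and TCA, and 0 had an adjusted p under 0.05. GCA replicate 4 did not correlate best with its own number.

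List medians against PBS moved with the replicate block to -0.062 for azurophil granules, 0.12 for interferon genes, -0.015 for the unfolded protein and stress list and -0.032 for hypoxia and glycolysis, and with limma to -0.014 for the stress list. When 1 sample was left out, the medians ranged from -0.016 to 0.019 for the p38 list, -0.29 to -0.15 for cytokines, -0.17 to -0.023 for azurophil granules, -0.068 to 0.011 for NADPH oxidase, -0.052 to 0.039 for adhesion, -0.022 to 0.068 for NRF2 targets, -0.057 to -0.00887 for the stress list, -0.027 to 0.010 for heat shock, 0.035 to 0.17 for fatty acid synthesis, -0.032 to 0.019 for hypoxia and glycolysis, -0.033 to 0.025 for cyclic AMP, and -0.047 to 0.11, -0.48 to 0.019 and -0.27 to 0.073 for the dendritic, erythroid and stroma markers. The mean correlation of GCA replicate 4 with Tβ-MCA was 0.23 on log2(RPKM + 1). Intervals were widest for genes under 1 CPM.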
